A study of Homo sapiens with 9 samples.

Results

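The genes described here make fatty acids and cholesterol, or regulate that synthesis, and they were chosen by name. There are 42 symbols, each of which matched 1 Ensembl gene among the 57905 of the deposited count table. They fall into a fatty acid branch of 18 genes, a sterol branch of 19 genes and 5 regulators, which are the genes of the sterol regulatory element binding proteins (SREBPs), SREBF1 and SREBF2, and of SCAP, INSIG1 and INSIG2, which control them. All 9 libraries come from A549 cells, a long-established line of human lung adenocarcinoma, grown with 5% serum. In 3 libraries (shAKR1B1) a short hairpin RNA lowered AKR1B1, aldose reductase, which turns glucose into sorbitol. In 3 others (shSORD) a hairpin lowered SORD, sorbitol dehydrogenase, which turns sorbitol into fructose. The remaining 3 (plko) are titled plko and labelled as scrambled controls, and these names can mean different vectors, so what the control cells carried is uncertain. Each target has 1 hairpin label and 1 shared control, so an effect of a single hairpin cannot be told apart from that of its target. The labels call the libraries of a group biological replicates without saying how they were separated, so each p-value reflects library-to-library spread that may be technical. As in any bulk RNA measurement, fewer cells expressing a gene and less RNA per cell cannot be told apart.

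Cells build fatty acids from citrate that leaves the mitochondrion: it is split to acetyl-CoA, joined stepwise into palmitate, and the chain is then elongated, desaturated and activated to acyl-CoA. Cholesterol starts from the same acetyl-CoA and runs through mevalonate, isoprenoid units, squalene and lanosterol. Both routes are classic targets of the SREBP transcription factors, of which SREBP1 (gene SREBF1) is best known for fatty acid genes and SREBP2 (gene SREBF2) for sterol genes. SCAP escorts the SREBP precursors out of the endoplasmic reticulum, and the INSIG proteins hold SCAP back when sterols are plentiful. Lung epithelium is rich in this synthesis, since alveolar cells make the lipids of surfactant.

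SREBPs are known to bind a short sterol regulatory element, often near a CCAAT box bound by NF-Y, and the upstream sequences of members that carry such an element are shown so that they can be set beside their RNA values. The relaxed element TCACNCNAC, on either strand, occurred in the 250 bases before a listed RefSeq start of 6 of the 38 members with a promoter entry (15.8%), against 2.48% of 27305 genes. The stricter TCACNCCAC occurred in 2 of 38 (5.26%), ACSL1 and SREBF2, against 1.09% of all genes. Searched the same way, CCAAT occurred in 26 of 38 members (68.4%) and 37.0% of all genes, and it overlapped the element in none of the 6. The GC box GGGCGG occurred in 35 of 38 members (92.1%) and 46.2% of all genes. All genes here are those with a promoter entry, expressed or not, whereas every member had enough counts to be tested. A gene counted if any of its listed starts had a match, so the shares do not compare matched genes. FASN, ACAT2, FDFT1 and SQLE have no entry in the table. The stretches are from RefSeq, build GRCh38.p14, read 5′ to 3′ on the gene's strand, with the element and any CCAAT box (ATTGG on the other strand) in capitals:
SREBF2 (chr22:41832902-41833050, plus strand): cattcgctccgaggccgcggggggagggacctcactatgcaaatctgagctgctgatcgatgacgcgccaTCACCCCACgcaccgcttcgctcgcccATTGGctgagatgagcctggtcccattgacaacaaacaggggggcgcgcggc
FADS2 (chr11:61815953-61816061, plus strand): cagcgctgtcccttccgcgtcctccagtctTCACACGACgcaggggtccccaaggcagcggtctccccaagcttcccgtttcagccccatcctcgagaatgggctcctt
FDPS (chr1:155308656-155308804, plus strand): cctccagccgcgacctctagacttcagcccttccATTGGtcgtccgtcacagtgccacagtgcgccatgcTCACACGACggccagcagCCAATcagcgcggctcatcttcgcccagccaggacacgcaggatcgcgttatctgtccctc
HSD17B7 (chr1:162790534-162790682, plus strand): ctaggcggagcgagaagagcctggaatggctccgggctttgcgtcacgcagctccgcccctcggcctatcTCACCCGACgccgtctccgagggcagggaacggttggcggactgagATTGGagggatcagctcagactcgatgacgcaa
ACSL1 (chr4:184805717-184805803, minus strand): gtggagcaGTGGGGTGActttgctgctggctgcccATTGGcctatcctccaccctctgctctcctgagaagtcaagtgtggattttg
ACSS2 (chr20:34876362-34876452, plus strand): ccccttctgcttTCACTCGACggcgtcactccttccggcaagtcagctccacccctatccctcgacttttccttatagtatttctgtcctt
In shAKR1B1 against plko cells the RNA of FADS2, FDPS and ACSL1 fell, that of ACSS2 rose, and SREBF2 and HSD17B7 did not pass the test, with values given below. The ACSL1 and ACSS2 stretches lie before 1 of several listed starts (5 and 2), as does that of FADS2 (2), and which start A549 cells use was not measured. A match of letters is a description and does not show binding.

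Library totals ranged from 32436524 to 43044456 counts. The targets went with the labels: AKR1B1 had 146, 148 and 167 CPM in shAKR1B1 cells, 945, 1109 and 1135 CPM in shSORD cells and 1456, 1395 and 1397 CPM in plko cells. SORD had 30.4, 30.2 and 31 CPM in shAKR1B1 cells, 8.68, 9 and 8.18 CPM in shSORD cells and 44.1, 43 and 41.7 CPM in plko cells. Each target also fell in the other knockdown, AKR1B1 to 75.1% of plko in shSORD cells (adjusted p = 0.000131) and SORD to 71.2% in shAKR1B1 cells (adjusted p = 6.43e-06). All 8 markers looked for in A549 cells were detected: the epithelial KRT8, KRT18, KRT7, EPCAM and CDH1, and the reductases AKR1B10, AKR1C1 and NQO1. Together they had 729245 to 951347 counts in shAKR1B1, 705975 to 808441 in shSORD and 586982 to 629229 in plko libraries. Single markers differed between groups: in shAKR1B1 cells EPCAM was at 343% of plko and KRT7 at 59.0%. Mean EPCAM was 10.5 CPM in shAKR1B1, 15.6 CPM in shSORD and 3.06 CPM in plko cells. Mean KRT7 was 1189, 1744 and 2015 CPM in the same groups. EPCAM had only 113 to 119 counts in plko libraries. Summed over 5 fibroblast markers there were 15 to 20 counts in shAKR1B1, 45 to 69 in shSORD and 8 to 20 in plko libraries, and over 4 endothelial markers 3 to 7 in shAKR1B1, 4 to 8 in shSORD and 2 to 9 in plko libraries. Among 5 blood cell markers CD3E was at 0 throughout and CD14 held nearly all of the summed counts, 173 to 216 in shAKR1B1, 114 to 178 in shSORD and 317 to 353 in plko libraries. Their part in the results was not tested. Within shSORD, replicates 2 and 3 lay far apart on the third principal component (21.8 and -24.9, with 4.88% of the variance, against -4.38 to 9.46 for the other 7 libraries), so shSORD results that turn on 1 of them are given with and without it.

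With AKR1B1 knockdown most genes of both branches fell. A gene was called when its adjusted p was under 0.05 in edgeR's quasi-likelihood test across 16916 genes, and "rose" and "fell" refer to such calls. In the fatty acid branch 11 of 18 members fell and 2 rose in shAKR1B1 against plko cells, and in the sterol branch 13 of 19 fell and 4 rose. Among all genes tested 57.4% were called in that comparison, 29.6% lower and 27.8% higher. The median log2 fold change was -0.34 in the fatty acid branch and -0.37 in the sterol branch, against -0.00 over all genes. With SORD knockdown fewer members were called: 8 of 18 fatty acid members fell and 3 rose, and 10 of 19 sterol members fell and 2 rose, where 56.5% of all genes were called, 29.0% lower and 27.5% higher. The shSORD medians were -0.12 and -0.22, against -0.00 over all genes. Most changes were modest: of genes called with at least a 1.5-fold change in shAKR1B1 cells there were 5 fatty acid members (4 lower, 1 higher) and 2 sterol members (1 of each), where 24.8% of all genes were called by that rule, 10.0% lower and 14.7% higher. In shSORD cells there were 2 fatty acid members (1 of each) and 1 sterol member, lower, where 23.5% of all genes were called, 8.60% lower and 14.9% higher. Both comparisons use the same 3 plko libraries.

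Library by library, the median of the fatty acid branch, as log2 CPM minus the plko mean, was -0.33, -0.33 and -0.30 in shAKR1B1 replicates 1, 2 and 3, and -0.14, -0.27 and -0.06 in shSORD replicates 1, 2 and 3. The median of the sterol branch was -0.37, -0.35 and -0.31 in shAKR1B1 replicates and -0.30, -0.14 and -0.23 in shSORD replicates. The shAKR1B1 libraries were close to each other in both branches, whereas shSORD replicate 2 had the lowest fatty acid median of its group and the highest sterol median. All 6 knockdown libraries were below all 3 plko libraries, which lay between -0.02 and 0.01 in both branches. Subtracting each gene's plko mean centres the plko libraries, so their narrow range is partly set by this step. The separation is a description.

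**Figure D1:**
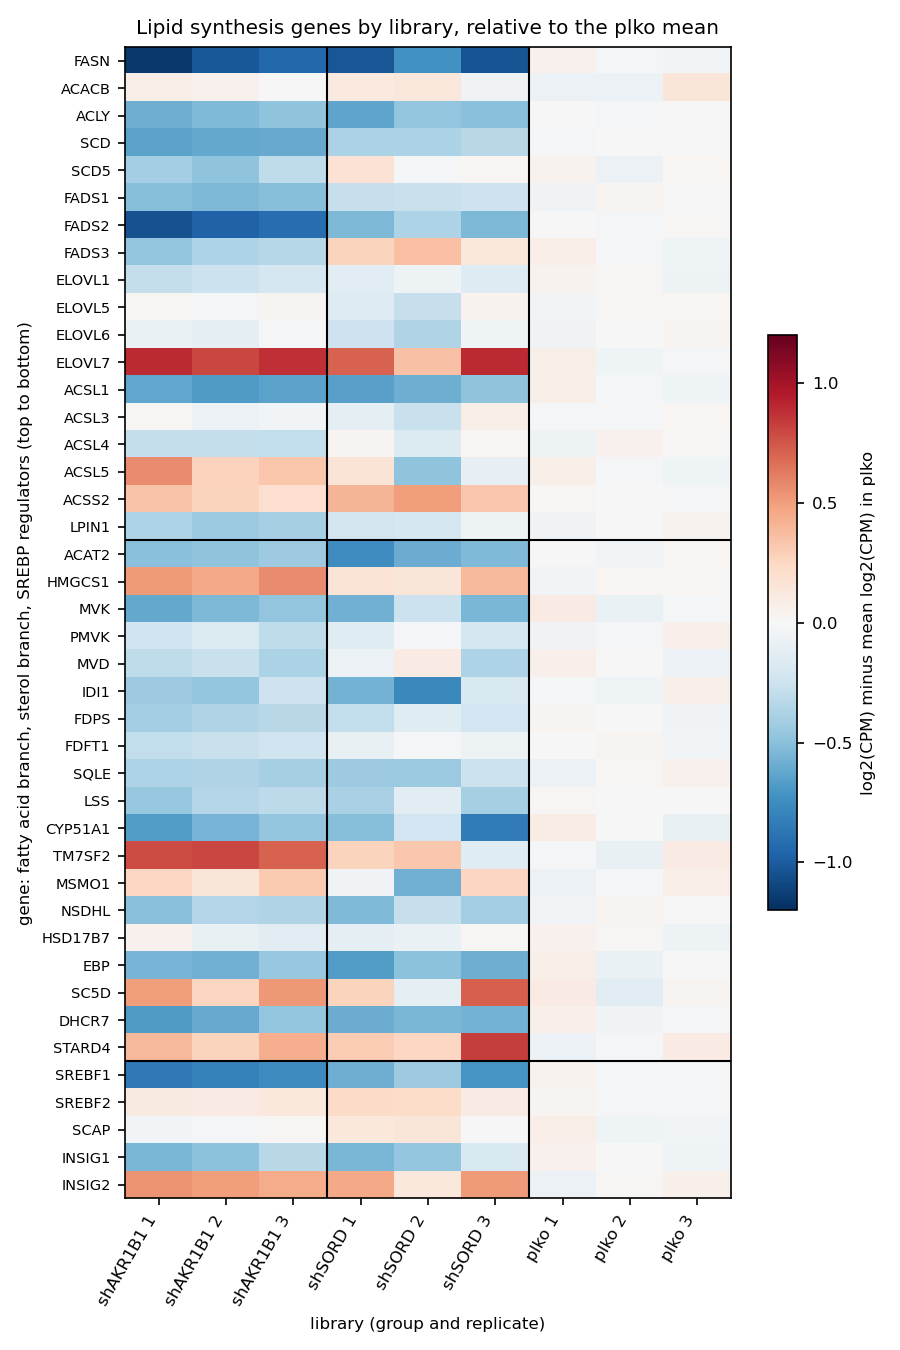
Each row is a member and each column a library, coloured by log2 CPM minus the gene's mean log2 CPM in plko libraries (blue lower, red higher). Rows run through 18 fatty acid genes, 19 sterol genes and 5 SREBP regulators; most rows are blue in shAKR1B1 and paler in shSORD, and ELOVL7, HMGCS1, TM7SF2, SC5D, STARD4 and INSIG2 are among the red ones.

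Among the regulators, the gene of the fatty acid factor fell and that of the sterol factor did not. SREBF1 had 186, 193 and 200 CPM in shAKR1B1 cells, 225, 249 and 207 CPM in shSORD cells and 348, 331 and 333 CPM in plko cells. All knockdown libraries were below all plko libraries, with shAKR1B1 at 57.2% of plko (log2 fold change -0.81, SE 0.063, adjusted p = 5.87e-08) and shSORD at 67.3% (log2 fold change -0.57, SE 0.063, adjusted p = 2.43e-06). SREBF2 had 121, 121 and 123 CPM in shAKR1B1 cells, 132, 131 and 121 CPM in shSORD cells and 115, 111 and 112 CPM in plko cells. Its knockdown libraries were all above the plko ones, by little: it rose in shSORD cells (log2 fold change 0.19, adjusted p = 0.00698) and missed the threshold in shAKR1B1 cells (log2 fold change 0.11, adjusted p = 0.0804). There it passed without shSORD replicate 2 (adjusted p = 0.0478) or replicate 3 (0.0158), with the 6 libraries of that comparison alone (0.00441), with upper quartile scaling (0.0133) and with a filter of 50 counts in 3 libraries (0.019). SCAP, the escort, had 64.9, 65.4 and 67 CPM in shAKR1B1 cells, 72.4, 73.3 and 66.2 CPM in shSORD cells and 70.1, 63.9 and 64.8 CPM in plko cells. Groups overlapped, and neither shAKR1B1 (log2 fold change -0.01, adjusted p = 0.891, 95% interval -0.14 to 0.12) nor shSORD passed (log2 fold change 0.09, adjusted p = 0.207). Without shSORD replicate 3 the shSORD value was 0.16 and was called (adjusted p = 0.0211), as it was with upper quartile scaling (0.0322) and the filter of 50 counts (0.0494).

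The 2 retention genes moved in opposite directions. INSIG1, itself a classic SREBP target, had 28.8, 29.9 and 33.4 CPM in shAKR1B1 cells, 28.8, 30.6 and 37.1 CPM in shSORD cells and 43.8, 42.2 and 40.6 CPM in plko cells. It fell in shAKR1B1 (log2 fold change -0.46, SE 0.088, adjusted p = 0.000449) and in shSORD cells (log2 fold change -0.39, SE 0.088, adjusted p = 0.00154), with shSORD replicate 3 nearest to the plko libraries. INSIG2, its close relative that is not known for strong sterol regulation, had 21.4, 20.9 and 20.1 CPM in shAKR1B1 cells, 20.2, 16.1 and 21.1 CPM in shSORD cells and 14, 14.9 and 15.4 CPM in plko cells. It rose in both, by 1.41-fold in shAKR1B1 (log2 fold change 0.49, SE 0.092, adjusted p = 0.000322) and 1.29-fold in shSORD cells (log2 fold change 0.37, SE 0.092, adjusted p = 0.00306), and no knockdown library overlapped a plko library.

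At the start of the fatty acid branch FASN and ACLY fell in both knockdowns, ACSS2 rose in both and ACACB was not called. FASN, which assembles palmitate, had 214, 236 and 249 CPM in shAKR1B1 cells, 236, 289 and 234 CPM in shSORD cells and 498, 472 and 469 CPM in plko cells. That is 48.6% of plko with shAKR1B1 (log2 fold change -1.04, SE 0.078, adjusted p = 3.41e-08) and 52.8% with shSORD (log2 fold change -0.92, SE 0.077, adjusted p = 1.58e-07), and shSORD replicate 2 was the highest of the 6 knockdown libraries. ACLY, which cleaves citrate to acetyl-CoA, had 779, 810.1 and 841 CPM in shAKR1B1 cells, 754, 842 and 829 CPM in shSORD cells and 1179, 1165 and 1175 CPM in plko cells. It fell in shAKR1B1 (log2 fold change -0.53, adjusted p = 6.12e-07) and shSORD cells (log2 fold change -0.54, adjusted p = 7.29e-07). ACSS2, which makes acetyl-CoA from acetate instead, went the other way, with 32, 30.4 and 29 CPM in shAKR1B1 cells, 33.5, 35.7 and 31.6 CPM in shSORD cells and 25.6, 25.2 and 24.9 CPM in plko cells. It rose in shAKR1B1 (log2 fold change 0.27, adjusted p = 0.00313) and shSORD cells (log2 fold change 0.41, adjusted p = 9.74e-05), with every knockdown library above every plko library. ACACB, the mitochondrial-membrane acetyl-CoA carboxylase, whose malonyl-CoA restrains fatty acid oxidation, overlapped between groups and was not called in shAKR1B1 (0.04, adjusted p = 0.7) or shSORD cells (0.07, adjusted p = 0.479).

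All 5 desaturases fell in shAKR1B1 cells, and 3 of them also in shSORD cells. Among all genes tested 29.6% were called lower in shAKR1B1 and 29.0% in shSORD cells. SCD, stearoyl-CoA desaturase, which makes monounsaturated fatty acids, had 374, 380.0 and 383 CPM in shAKR1B1 cells, 448, 449.8 and 462 CPM in shSORD cells and 578, 586 and 586 CPM in plko cells. The 3 groups did not overlap, with shAKR1B1 lowest (log2 fold change -0.62, SE 0.044, adjusted p = 2.02e-08) and shSORD between it and plko (log2 fold change -0.36, SE 0.044, adjusted p = 6.34e-06). FADS2, which begins the making of long polyunsaturated fatty acids, had 242, 254 and 265 CPM in shAKR1B1 cells, 344, 386 and 343 CPM in shSORD cells and 499, 495 and 505 CPM in plko cells. The order was the same, at 50.8% of plko with shAKR1B1 (log2 fold change -0.98, SE 0.057, adjusted p = 2.43e-09) and 71.6% with shSORD (log2 fold change -0.48, SE 0.056, adjusted p = 4.36e-06). FADS1, a later desaturase of that route, likewise fell in shAKR1B1 (log2 fold change -0.52, adjusted p = 1.66e-07) and shSORD cells (log2 fold change -0.27, adjusted p = 0.00014). FADS1 and FADS2 lie next to each other on opposite strands, and in GENCODE 29 exons of each overlap the other over 4.8% of FADS1 and 4.4% of FADS2, so a small share of their reads could be lost or swapped. SCD5, a second stearoyl-CoA desaturase, had 12.6, 12 and 13.5 CPM in shAKR1B1 cells, 18.9, 16.5 and 17 CPM in shSORD cells and 17.2, 15.9 and 17 CPM in plko cells. SCD5 fell in shAKR1B1 cells (log2 fold change -0.40, adjusted p = 0.00053) and was not called in shSORD cells (log2 fold change 0.06, adjusted p = 0.531). FADS3, a relative of FADS1 and FADS2 that acts on sphingoid bases, had 22.1, 23.7 and 24.3 CPM in shAKR1B1 cells, 36.9, 39.4 and 33.8 CPM in shSORD cells and 32.3, 30.1 and 29.7 CPM in plko cells. FADS3 fell in shAKR1B1 (log2 fold change -0.39, SE 0.073, adjusted p = 0.000301) and rose in shSORD cells (log2 fold change 0.26, SE 0.071, adjusted p = 0.00636), the 1 member of the 42 called in opposite directions.

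The elongases and acyl-CoA synthetases were mixed. ELOVL7, an elongase of long saturated chains, had the largest rise among the 18 members of the fatty acid branch, with 27.5, 25.7 and 27.1 CPM in shAKR1B1 cells, 24, 18.7 and 27.3 CPM in shSORD cells and 15.5, 14.2 and 14.5 CPM in plko cells. It rose 1.82-fold in shAKR1B1 (log2 fold change 0.86, SE 0.11, adjusted p = 7.26e-06) and 1.59-fold in shSORD cells (log2 fold change 0.67, SE 0.11, adjusted p = 9.8e-05), and shSORD replicate 2 was the knockdown library closest to plko. ELOVL1, which makes very long saturated chains, fell in shAKR1B1 cells (log2 fold change -0.24, adjusted p = 0.00128) and was not called in shSORD cells (log2 fold change -0.11, adjusted p = 0.0833; 0.0301 without shSORD replicate 2). ELOVL6, which extends palmitate to stearate, was not called in shAKR1B1 (log2 fold change -0.07, adjusted p = 0.445) and fell slightly in shSORD cells (log2 fold change -0.22, adjusted p = 0.0201). That call was lost without plko replicate 2 or 3 or shSORD replicate 1 or 2 (adjusted p = 0.056, 0.0786, 0.0766 and 0.0591), with upper quartile scaling (0.0937), with a filter of 50 counts in 3 libraries (0.063) or with the 2 groups alone (0.0551). ELOVL5, the elongase of polyunsaturated chains, was at 0.01 in shAKR1B1 (adjusted p = 0.916) and -0.12 in shSORD cells (adjusted p = 0.13, and 0.00351 without shSORD replicate 3).

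Of the 4 acyl-CoA synthetases, which activate free fatty acids, ACSL1 changed most. It had 23.8, 23 and 23.6 CPM in shAKR1B1 cells, 23.4, 24.5 and 26.3 CPM in shSORD cells and 38.5, 36.2 and 35.5 CPM in plko cells. It fell in shAKR1B1 (log2 fold change -0.65, SE 0.066, adjusted p = 8.51e-07) and shSORD cells (log2 fold change -0.57, SE 0.065, adjusted p = 3.55e-06), with no overlap with plko. ACSL4, which prefers polyunsaturated fatty acids, fell in shAKR1B1 cells (log2 fold change -0.29, adjusted p = 0.00145) and was not called in shSORD cells (log2 fold change -0.03, adjusted p = 0.693). ACSL3, the lipid droplet-associated form, was at -0.03 in shAKR1B1 (adjusted p = 0.743) and -0.10 in shSORD cells (adjusted p = 0.253, and 0.012 without shSORD replicate 3). ACSL5 had 34 to 63 counts per library and was not called in either (log2 fold change 0.39, adjusted p = 0.0833 in shAKR1B1; log2 fold change -0.12, adjusted p = 0.619 in shSORD). In shAKR1B1 cells it was called higher with upper quartile scaling (0.45, adjusted p = 0.0486), the filter of 50 counts (0.0497) or the 2 groups alone (0.0431). LPIN1, which turns phosphatidic acid into diacylglycerol for triacylglycerol and phospholipid synthesis, fell in shAKR1B1 cells (log2 fold change -0.40, adjusted p = 6.09e-05). Its smaller fall in shSORD cells (log2 fold change -0.16, adjusted p = 0.0374) was lost without plko replicate 2 or 3, shAKR1B1 replicate 1 or 2, or shSORD replicate 1 or 2 (adjusted p = 0.0525 to 0.174). It was also lost with upper quartile scaling (log2 fold change -0.09, adjusted p = 0.233), without a filter on low genes (0.0646), with a filter of 50 counts in 3 libraries (0.132) and with the 2 groups alone (0.11).

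**Figure D2:**
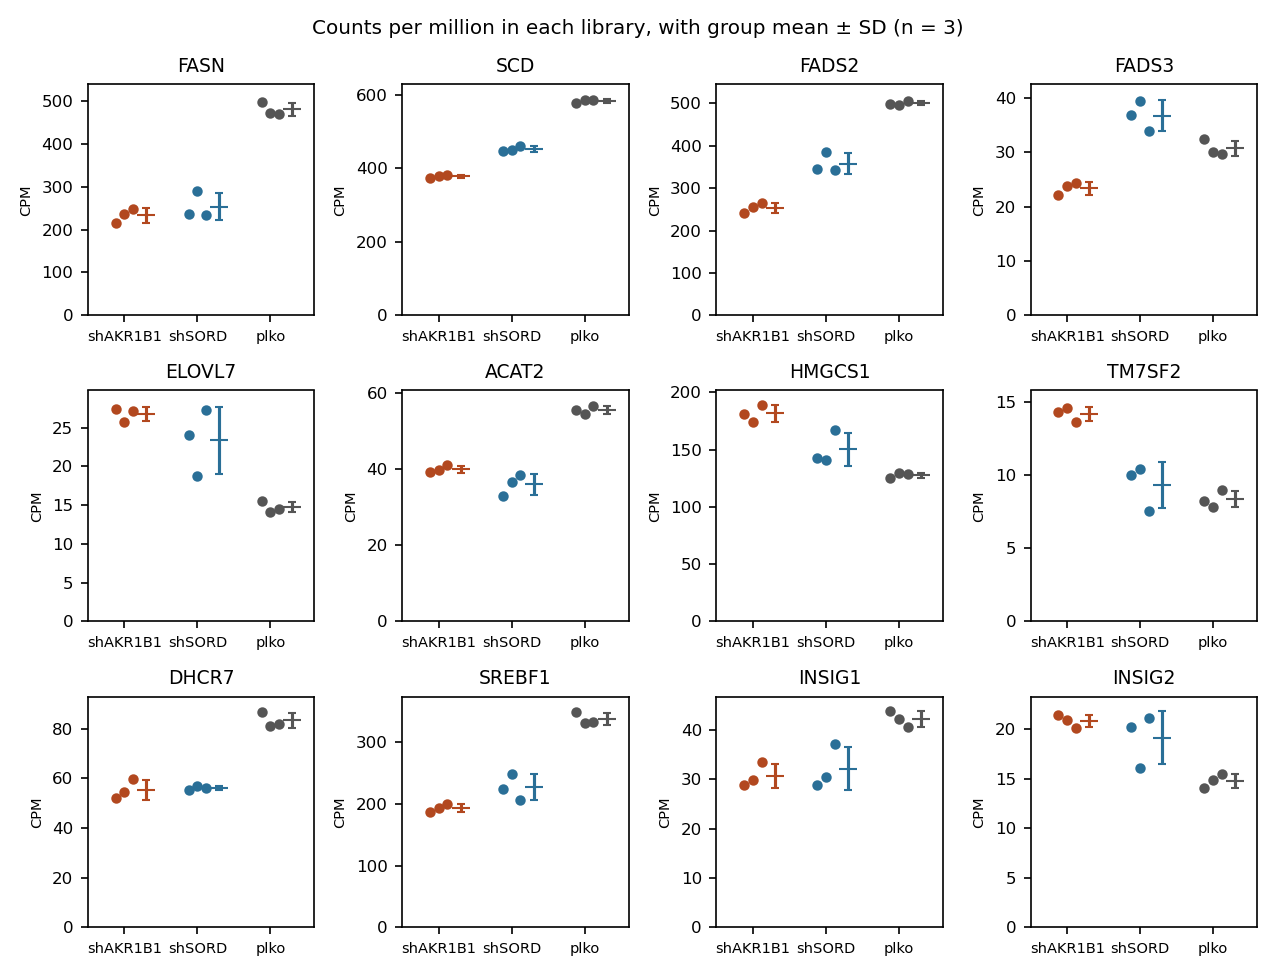
Points are CPM (counts scaled to the library size) in single libraries for 12 members; the bar beside each group is its mean with SD (n = 3), and each axis starts at 0. FASN, SCD, FADS2, ACAT2, DHCR7, SREBF1 and INSIG1 sit below plko in all 6 knockdown libraries, ELOVL7, HMGCS1 and INSIG2 above it, and FADS3 falls with shAKR1B1 and rises with shSORD.

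At the entry to the sterol branch ACAT2 fell and HMGCS1 rose in both knockdowns. ACAT2, which joins acetyl-CoA units to acetoacetyl-CoA, had 39.4, 39.7 and 41.1 CPM in shAKR1B1 cells, 33.1, 36.7 and 38.6 CPM in shSORD cells and 55.7, 54.5 and 56.7 CPM in plko cells. Levels fell in shAKR1B1 (log2 fold change -0.47, SE 0.064, adjusted p = 1.7e-05) and, by 1.54-fold, in shSORD cells (log2 fold change -0.62, SE 0.064, adjusted p = 1.31e-06). In GENCODE 29, 52.3% of its exonic length lies opposite exons of other genes, TCP1 among them, and the strand setting of the counting is not known, so its level is uncertain. HMGCS1, which makes HMG-CoA in the next step and is a well known SREBP2 target, had 182, 175 and 189 CPM in shAKR1B1 cells, 143, 141 and 167 CPM in shSORD cells and 125, 129 and 129 CPM in plko cells. All knockdown libraries were above all plko libraries, and it rose 1.42-fold in shAKR1B1 (log2 fold change 0.51, SE 0.065, adjusted p = 8.83e-06) and 1.18-fold in shSORD cells (log2 fold change 0.23, SE 0.065, adjusted p = 0.00614). Another gene lies opposite 15.0% of its exonic length.

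From MVK to FDFT1, a run that begins after HMGCS1, which rose, 6 of 6 enzymes fell in shAKR1B1 cells. MVK, IDI1 and FDPS also fell in shSORD cells. Among all genes tested 29.6% were called lower in shAKR1B1 and 29.0% in shSORD cells. MVK, mevalonate kinase, had 13, 13.7 and 14.3 CPM in shAKR1B1 cells, 13.4, 16.6 and 13.6 CPM in shSORD cells and 21.2, 18.7 and 19.7 CPM in plko cells. MVK fell in shAKR1B1 (log2 fold change -0.54, adjusted p = 0.000114) and shSORD cells (log2 fold change -0.45, adjusted p = 0.00049). The next kinase, PMVK, fell in shAKR1B1 cells (log2 fold change -0.24, adjusted p = 0.00616; adjusted p = 0.0587 without plko replicate 3) and was not called in shSORD cells (log2 fold change -0.12, adjusted p = 0.13; 0.0217 without shSORD replicate 2). MVD, which yields isopentenyl diphosphate, fell in shAKR1B1 cells (log2 fold change -0.32, adjusted p = 0.0112) and did not pass in shSORD cells (log2 fold change -0.10, adjusted p = 0.386), where it was called without shSORD replicate 2 (log2 fold change -0.21, adjusted p = 0.0357). IDI1, isopentenyl diphosphate isomerase, had 42.3, 41.5 and 48.3 CPM in shAKR1B1 cells, 38.8, 33.5 and 50.5 CPM in shSORD cells and 56.7, 55.6 and 60.1 CPM in plko cells. IDI1 fell in shAKR1B1 (log2 fold change -0.38, adjusted p = 0.00915) and shSORD cells (log2 fold change -0.49, adjusted p = 0.00179), although the shSORD libraries were widely spread. Another gene lies opposite 14.8% of the exonic length of IDI1. FDPS, farnesyl diphosphate synthase, fell in shAKR1B1 (log2 fold change -0.37, adjusted p = 4.21e-05) and shSORD cells (log2 fold change -0.22, adjusted p = 0.00287). FDFT1, squalene synthase, which commits the pathway to sterols, had 87, 88.7 and 90.1 CPM in shAKR1B1 cells, 100.4, 106 and 103 CPM in shSORD cells and 107, 109 and 104 CPM in plko cells. It fell in shAKR1B1 cells (log2 fold change -0.27, adjusted p = 0.000333) and was not called in shSORD cells (log2 fold change -0.05, adjusted p = 0.389, 95% interval -0.16 to 0.05).

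From squalene onward SQLE, squalene epoxidase, fell in shAKR1B1 (log2 fold change -0.38, adjusted p = 9.37e-05) and shSORD cells (log2 fold change -0.38, adjusted p = 0.000101). LSS, which closes the ring to lanosterol, fell by 0.37 in shAKR1B1 (adjusted p = 0.000557) and by 0.30 in shSORD cells (adjusted p = 0.00317) on the log2 scale. DHCR7, the final reductase of cholesterol synthesis, had 51.9, 54.6 and 59.8 CPM in shAKR1B1 cells, 55.2, 57 and 56.2 CPM in shSORD cells and 86.7, 81.1 and 82 CPM in plko cells. It fell to 66.6% of plko with shAKR1B1 (log2 fold change -0.59, SE 0.061, adjusted p = 1.25e-06) and 67.4% with shSORD (log2 fold change -0.57, SE 0.061, adjusted p = 1.99e-06). EBP, the sterol isomerase, fell in shAKR1B1 (log2 fold change -0.53, adjusted p = 6.99e-06) and shSORD cells (log2 fold change -0.58, adjusted p = 3.12e-06). NSDHL, which helps remove methyl groups from the ring, fell by 0.40 in each on the log2 scale (adjusted p = 0.000239 in shAKR1B1 and 0.000243 in shSORD). CYP51A1, the lanosterol demethylase, was called lower in shAKR1B1 (log2 fold change -0.56, adjusted p = 0.00334) and shSORD cells (log2 fold change -0.50, adjusted p = 0.00644) on only 98 to 184 counts per library. In GENCODE 29, 79.4% of its exonic length is shared with other genes on its own strand, so its level is uncertain.

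TM7SF2, SC5D and STARD4 rose in shAKR1B1 cells, and MSMO1 and HSD17B7 were not called. TM7SF2, a sterol reductase of the nuclear and endoplasmic reticulum membranes, had 14.3, 14.6 and 13.6 CPM in shAKR1B1 cells, 10, 10.4 and 7.52 CPM in shSORD cells and 8.26, 7.85 and 8.96 CPM in plko cells. It rose 1.70-fold in shAKR1B1 cells (log2 fold change 0.76, SE 0.11, adjusted p = 2.5e-05), where no library overlapped plko, and was not called in shSORD cells (log2 fold change 0.16, adjusted p = 0.241; 0.31 and adjusted p = 0.00462 without shSORD replicate 3). SC5D, which introduces a double bond of the ring, had 20.1, 16.9 and 20.4 CPM in shAKR1B1 cells, 17.1, 13.1 and 23.4 CPM in shSORD cells and 15.2, 12.9 and 14.5 CPM in plko cells. It rose in shAKR1B1 cells (log2 fold change 0.43, adjusted p = 0.0265). That call was lost without plko replicate 2, shAKR1B1 replicate 1 or shAKR1B1 replicate 3 (adjusted p = 0.101, 0.0778 and 0.0889). In shSORD cells SC5D was not called (log2 fold change 0.33, adjusted p = 0.0816; 0.00108 without shSORD replicate 2, 0.0308 with upper quartile scaling and 0.00148 without a filter). MSMO1, a methylsterol oxidase, had 38.7, 36.1 and 40.6 CPM in shAKR1B1 cells, 31.8, 21.9 and 39.2 CPM in shSORD cells and 31.3, 32.3 and 34.7 CPM in plko cells. It was not called in shAKR1B1 (log2 fold change 0.23, adjusted p = 0.173; 0.0119 without shSORD replicate 2, 0.0291 without replicate 3, 0.0173 without a filter and 0.00034 with the 2 groups alone) or shSORD cells (log2 fold change -0.08, adjusted p = 0.65; -0.27 and 0.0379 without shSORD replicate 3). HSD17B7, a reductase in the removal of methyl groups from the ring, was not called in shAKR1B1 (log2 fold change -0.06, adjusted p = 0.552) or shSORD cells (log2 fold change -0.06, adjusted p = 0.544). Of its 2 annotated pseudogenes, 1 held all the pseudogene counts, equal to 25.3% of those of HSD17B7. STARD4, a soluble carrier that moves cholesterol between membranes, had 12, 11.1 and 12.4 CPM in shAKR1B1 cells, 11.4, 10.9 and 16.4 CPM in shSORD cells and 8.73, 9.04 and 9.82 CPM in plko cells. It rose in shSORD cells (log2 fold change 0.49, adjusted p = 0.00496) and in shAKR1B1 cells (log2 fold change 0.36, adjusted p = 0.0264). The shAKR1B1 call was lost without plko replicate 1 or 2 or shAKR1B1 replicate 1 or 3 (adjusted p = 0.0652 to 0.0899).

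**Figure D3:**
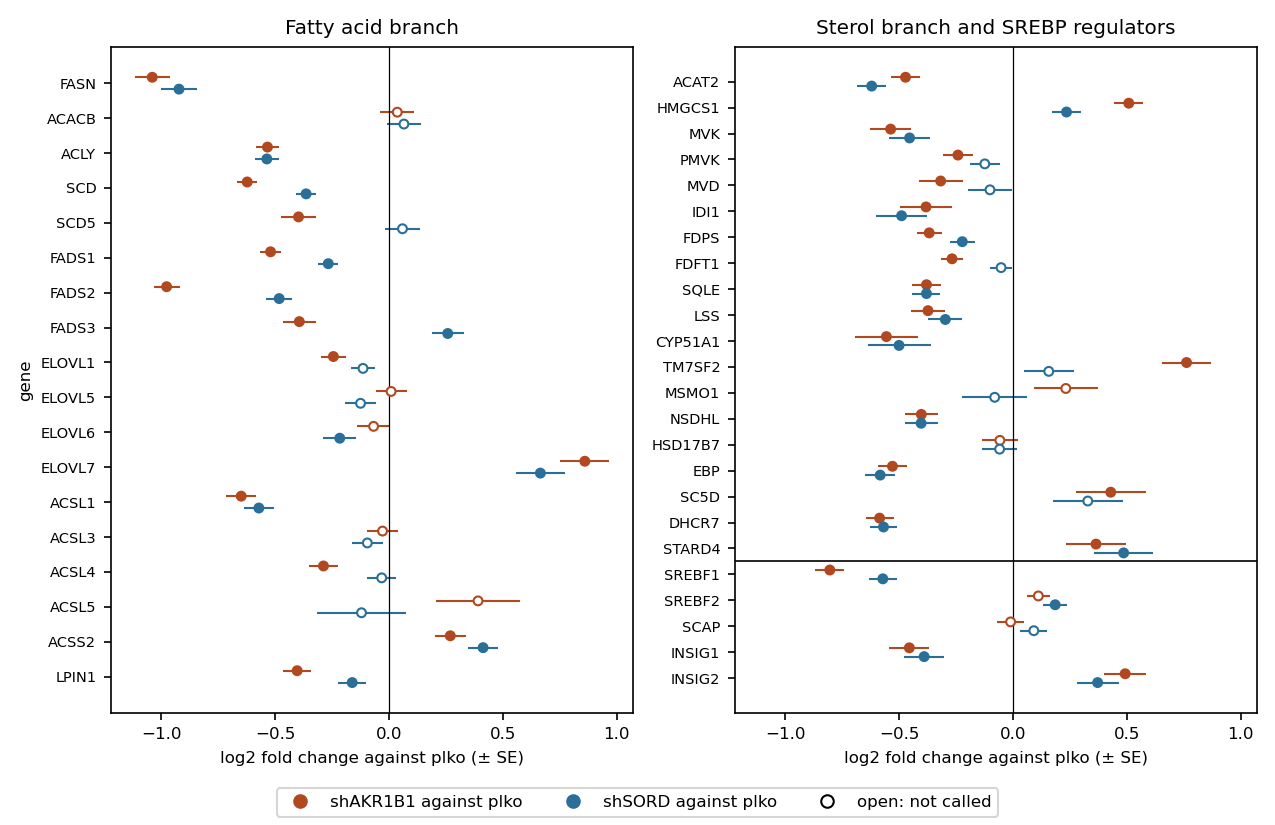
Log2 fold changes against plko with SE for all 42 members, shAKR1B1 above shSORD in each row; filled points passed an adjusted p of 0.05 and open ones did not. Falls of FASN, ACLY, ACSL1, SQLE, NSDHL, EBP and DHCR7 lie close together, while the desaturases SCD, SCD5, FADS1, FADS2 and FADS3 are further left with shAKR1B1.

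The direct comparison of the knockdowns, which does not use the plko libraries except for the shared spread, tests whether these effects differ. In shAKR1B1 against shSORD cells 7 of 18 fatty acid members were lower and 1 higher, 1 of 19 sterol members was lower and 2 were higher, and 1 of 5 regulators was lower, where 30.7% of all genes were called, 15.1% lower and 15.5% higher. By the 1.5-fold rule FADS3 was lower and TM7SF2 higher, beside 11.1% of all genes, 5.94% lower and 5.20% higher. The median log2 difference was -0.12 in the fatty acid branch and 0.00 in the sterol branch, against 0.01 over all genes.

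The 5 desaturases made up 5 of the 9 members that were lower in shAKR1B1 than in shSORD cells. FADS3 differed most (log2 fold change -0.65, SE 0.072, adjusted p = 6.79e-06), followed by FADS2 (log2 fold change -0.49, SE 0.056, adjusted p = 8.86e-06) and SCD5 (log2 fold change -0.46, SE 0.078, adjusted p = 0.000388). SCD (log2 fold change -0.26, adjusted p = 0.000379) and FADS1 (log2 fold change -0.25, adjusted p = 0.000534) differed by less. For each of the 5, the 3 shAKR1B1 libraries lay below the 3 shSORD libraries, and each call held under all 16 alternative settings, every left-out library included. The share of all genes that separate in this way is not given here, so the separation is a description. LPIN1 (log2 fold change -0.24, adjusted p = 0.00861) and ACSL4 (log2 fold change -0.26, adjusted p = 0.00722) were also lower. SREBF1 was lower too (log2 fold change -0.23, adjusted p = 0.0112), with an adjusted p of 0.0594 without shAKR1B1 replicate 1. ACSL5 was higher (log2 fold change 0.51, adjusted p = 0.0489) on few counts, and its call was lost under 12 of the 16 settings.

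In the sterol branch TM7SF2 (log2 fold change 0.61, SE 0.11, adjusted p = 0.000476) and HMGCS1 (log2 fold change 0.27, SE 0.064, adjusted p = 0.0046) were higher and FDFT1 (log2 fold change -0.22, SE 0.05, adjusted p = 0.00429) was lower in shAKR1B1 than in shSORD cells. With the replicate number as a block, since same-numbered libraries of these groups deviated together, MSMO1 was also called higher (log2 fold change 0.33, adjusted p = 0.0195), as it was without a filter on low genes (0.31, 0.000745). FDPS was called lower with upper quartile scaling (-0.16, 0.0453) or the stricter filter (-0.16, 0.0406). For members not called, the intervals bound the difference. For DHCR7 the difference was -0.02 (95% interval -0.15 to 0.11), for EBP 0.05 (95% interval -0.09 to 0.20), for SQLE 0.00 (95% interval -0.13 to 0.13) and for NSDHL 0.00 (95% interval -0.15 to 0.16). In the fatty acid branch the same held for FASN (-0.12, 95% interval -0.28 to 0.05), ACLY (0.00, 95% interval -0.11 to 0.11) and ACSL1 (-0.08, 95% interval -0.22 to 0.06). Differences within these intervals are not excluded, so the levels are not shown to be equal. Without shSORD replicate 3 calls grew over all genes, to 3566 higher and 3165 lower of 17192, from 2628 higher and 2558 lower of 16916. The member counts grew alongside, to 4 higher fatty acid members, 6 higher sterol members and 3 lower sterol members. The calls gained were ACSL3, ELOVL5, ELOVL6, ELOVL7, ACAT2, IDI1, MSMO1 and SC5D higher, and ELOVL1, ACSS2, MVD, FDPS and SCAP lower in shAKR1B1 cells (adjusted p = 0.00102 to 0.0407), and the call of ACSL5 was lost. FDPS was also called without shSORD replicate 1 (adjusted p = 0.0391).

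**Figure D4:**
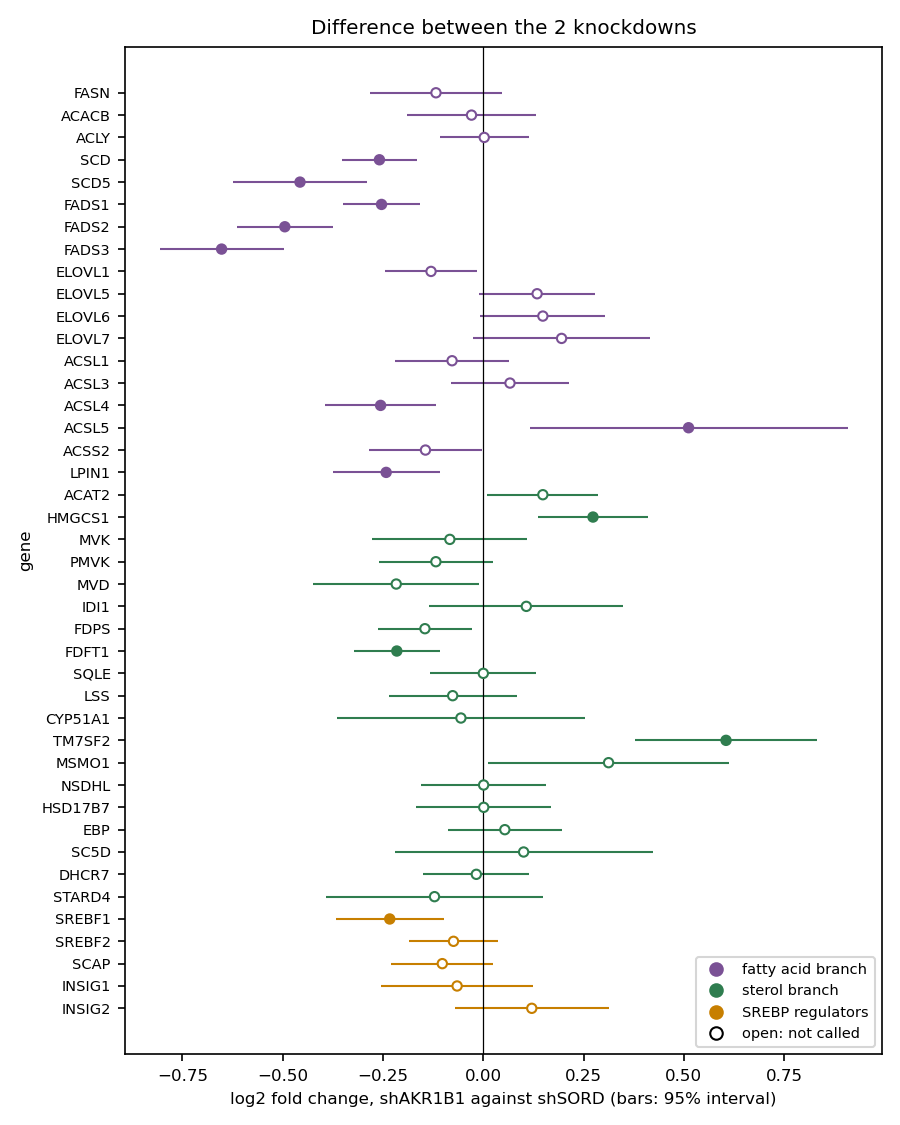
Log2 fold change of shAKR1B1 against shSORD for all 42 members with 95% intervals, coloured by branch; filled points were called. The 5 desaturases are filled on the left, between -0.65 and -0.25, while 16 of 19 sterol genes are open, with TM7SF2 at 0.61 on the right.

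Levels of different genes can be set side by side per length, as CPM per kilobase of exon in GENCODE 29. Ordered by their plko level, ACLY was the most abundant member, with 155 in shAKR1B1, 155 in shSORD and 225 in plko cells. SCD followed, with 70.7, 84.5 and 109 in the same groups, then FADS1, with 36.3, 43.2 and 52, and FASN, with 24.9, 27 and 51.2. These 4 genes of the fatty acid branch, all lower in both knockdowns, stood above every sterol gene in plko cells. So did FADS2 (45.3 in plko cells), also lower in both, and ELOVL1 (39.3 in plko cells), which was not called in shSORD cells. In plko cells FDPS was the highest sterol gene (27.8 in shAKR1B1, 30.7 in shSORD and 35.9 in plko cells), whereas HMGCS1 was the highest sterol gene in both knockdowns. Other genes lie opposite 18.6% of the exonic length of FDPS and 15.0% of that of HMGCS1. The strand setting of the counting is not known, so these ranks are uncertain. SREBF1 (24, 28.3 and 42) exceeded SREBF2 (16.1, 16.9 and 14.9) in shAKR1B1, shSORD and plko cells. Among genes that rose in shAKR1B1 cells, ELOVL7 was at 5.85, 5.11 and 3.22, and TM7SF2 at 4.16, 2.73 and 2.45. The more abundant HMGCS1 was at 38.6, 32 and 27.2, each in shAKR1B1, shSORD and plko cells.

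Other lipid lists are read against the shares of all genes tested, which were 29.6% lower and 27.8% higher in shAKR1B1 and 29.0% lower and 27.5% higher in shSORD cells. Of 16 further fatty acid synthesis and elongation genes tested (17 listed), 6 fell and 5 rose in shAKR1B1, and 5 fell and 4 rose in shSORD cells, with medians of -0.05 and -0.06, so that called members were about as common as among all genes. LPIN3, a relative of LPIN1, rose in shAKR1B1 (log2 fold change 0.66, adjusted p = 1.23e-06) and shSORD cells (log2 fold change 0.88, adjusted p = 8.57e-08), opposite to LPIN1. ELOVL2, an elongase of polyunsaturated chains, rose in shAKR1B1 (0.37, adjusted p = 0.00168) and shSORD cells (0.59, adjusted p = 3.3e-05). MID1IP1, a cofactor of acetyl-CoA carboxylase, fell by 0.34 in shAKR1B1 and 0.38 in shSORD cells on the log2 scale, and ACSS1, the mitochondrial acetyl-CoA synthetase, fell by 0.24 and 0.34 (adjusted p at most 0.00335). Of 19 further SREBP pathway and sterol handling genes, 6 fell and 7 rose in shAKR1B1, and 6 fell and 8 rose in shSORD cells. ERLIN2, an endoplasmic reticulum protein that takes part in sterol-regulated degradation, had 26.3 ± 0.473 CPM in shAKR1B1, 42 ± 1.81 in shSORD and 65.8 ± 1.41 in plko cells (SD, n = 3 each). ERLIN2 fell in shAKR1B1 (log2 fold change -1.32, adjusted p = 1.34e-10) and shSORD cells (log2 fold change -0.65, adjusted p = 2.71e-07). NPC1, the late endosomal cholesterol exporter, fell by 0.78 in shAKR1B1 and 0.20 in shSORD cells on the log2 scale, and the retinal reductase RDH11 fell by 0.18 in shAKR1B1 and 0.82 in shSORD cells (adjusted p at most 0.0172).

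Of 22 triacylglycerol and lipid droplet genes 7 fell and 6 rose in shAKR1B1, and 6 fell and 6 rose in shSORD cells, beside 29.6% and 27.8% of all genes in shAKR1B1 and 29.0% and 27.5% in shSORD cells. CIDEC, a lipid droplet fusion protein, had 12.1 ± 0.371 CPM in shAKR1B1, 7.34 ± 0.690 in shSORD and 3.11 ± 0.374 in plko cells (SD, n = 3 each). CIDEC rose in shAKR1B1 (log2 fold change 1.96, adjusted p = 1.2e-09) and shSORD cells (log2 fold change 1.24, adjusted p = 2.94e-07). The lipases MGLL (0.75 and 0.74) and LIPE (0.68 and 0.60) rose in shAKR1B1 and shSORD cells (adjusted p at most 0.00239). HILPDA, an inhibitor of lipolysis, was not called in shAKR1B1 (log2 fold change 0.17, adjusted p = 0.0855) and fell in shSORD cells (log2 fold change -0.73, adjusted p = 3.06e-06). Of 10 LXR receptors and targets 4 fell and 4 rose in shAKR1B1, and 4 fell and 3 rose in shSORD cells. ABCA1, the cholesterol exporter, had 11.4 ± 0.804 CPM in shAKR1B1, 16.1 ± 1.07 in shSORD and 30.1 ± 0.629 in plko cells (SD, n = 3 each). ABCA1 fell in shAKR1B1 (log2 fold change -1.41, adjusted p = 9.5e-10) and shSORD cells (log2 fold change -0.90, adjusted p = 1.05e-07). LPCAT3, a phospholipid remodelling enzyme, fell by 0.49 and 0.23, and the nuclear receptor RXRA by 0.49 and 0.40, while the phosphodiesterase-like SMPDL3A rose (0.78 and 0.54) in shAKR1B1 and shSORD cells (adjusted p at most 0.00296).

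Of 26 fatty acid oxidation genes 12 rose and 4 fell in shAKR1B1 cells (median 0.12), beside 27.8% of all genes higher and 29.6% lower. In shSORD cells 5 rose and 6 fell (median -0.01), beside 27.5% of all genes higher and 29.0% lower. In the direct comparison 11 of the 26 were higher in shAKR1B1 than in shSORD cells and 4 lower (median 0.13), beside 15.5% of all genes higher and 15.1% lower. PPARA, the nuclear receptor that drives fatty acid oxidation in liver, had 22.6 ± 1.07 CPM in shAKR1B1, 18.8 ± 2.67 in shSORD and 7.89 ± 0.258 in plko cells (SD, n = 3 each). PPARA rose in shAKR1B1 (log2 fold change 1.52, adjusted p = 6.16e-09) and shSORD cells (log2 fold change 1.25, adjusted p = 7.23e-08). Its coactivator PPARGC1A rose in shAKR1B1 cells (log2 fold change 0.69, adjusted p = 1.99e-05) and was not called in shSORD cells (log2 fold change 0.15, adjusted p = 0.215). ETFB, a subunit of the electron carrier of oxidation, was not called in shAKR1B1 (log2 fold change 0.11, adjusted p = 0.3) and fell in shSORD cells (log2 fold change -0.61, adjusted p = 4.64e-05). ACOX3, a peroxisomal oxidase, fell by 0.54 in shAKR1B1 (adjusted p = 4.25e-05) and by 0.28 in shSORD cells (adjusted p = 0.00727) on the log2 scale.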

How the data were processed

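RNA-seq libraries were made from poly(A) RNA with a strand-marking kit, per the labels' protocols. The submitters' processing notes name the GRCh37 build, featureCounts 1.5.1 (Subread), STAR 2.5.2b, cutadapt 1.9.1 and DESeq2 1.12.3. The deposited table holds the authors' raw counts of reads per Ensembl gene; the annotation release, strand setting and treatment of multiply mapped reads were not given in the sources used here. Counts were tested as deposited with edgeR (version 4.0.16, under R 4.3.3). Library sizes were scaled by TMM, low genes were dropped by filterByExpr (16916 kept, all 42 members among them), and the fit had 1 mean per group over all 9 libraries, with quasi-likelihood tests and Benjamini-Hochberg adjustment over all genes in each of 3 comparisons. CPM are counts per 1000000 of the TMM-scaled library size. SE is the absolute log2 fold change over the root of the F statistic, and 95% intervals use its degrees of freedom. The common biological coefficient of variation was 6.59%. The script was tested on simulated data. Full values were given for members called with at least a 1.5-fold change, in any comparison, the regulators and members called in opposite directions, and for some other members chosen after their values were seen; from each other list up to 4 called genes with the largest changes and at least 50 mean counts were named, except for a result that is not reported here. Members and lists were chosen with earlier results of these data known. Replicates differed by more than sampling noise. Same-numbered shAKR1B1 and shSORD libraries deviated together from their group means (correlations 0.102, 0.193 and 0.144). This was read from the data and not from a stated shared batch. Values given for that comparison are from the fit without pairing, unless the block is named. Replicate numbers entered only the replicate block, an alternative fit over all 9 libraries. Alternatives were RLE or upper quartile scaling, no filter or a filter of 50 counts in 3 libraries, DESeq2 1.42.0, the 2 groups alone, a replicate block and each library left out. Promoters came from RefSeq, and exon lengths and overlaps from GENCODE 29, which is on another build than the counts.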

Additional observations from a re-analysis of the deposited data

Results flagged for a closer look

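FADS3 was called in opposite directions by the 2 knockdowns, lower in shAKR1B1 and higher in shSORD cells against plko, and the direct test of shAKR1B1 against shSORD gave a log2 fold change of -0.65 (adjusted p = 6.79e-06, edgeR, lower in 3 of 3 shAKR1B1 libraries than in any shSORD library). No other of the 42 members met this condition.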

How the results depend on the processing

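Over 126 single-gene results and 16 alternatives, 2016 values were recomputed. No called change reversed, 38 values lost and 44 gained a call, and 63 changed sign with no call under either setting. Upper quartile scaling moved the sterol medians to -0.31 (shAKR1B1 against plko) and -0.15 (shSORD against plko) and the shSORD fatty acid median to -0.051, while the stricter filter gave a shSORD sterol median of -0.17; that scaling shifts all genes by 0.06 and 0.07. Sterol members at least 1.5-fold lower numbered 0 in shAKR1B1 with RLE or upper quartile scaling, the stricter filter, DESeq2 or the 2 groups alone, since DHCR7 lies at the fold threshold. In shSORD that number was 0 with upper quartile scaling or the stricter filter and 2 without a filter. Between the knockdowns, higher fatty acid members numbered 0 with upper quartile scaling, no filter, DESeq2 or the 2 groups alone, and lower sterol members 2 with upper quartile scaling or the stricter filter. Over all genes, 2514 were higher and 2741 lower of 16916 with upper quartile scaling, and 2282 and 2460 of 13596 with the stricter filter. Without a filter 2816 and 2635 of 31369 were called, with DESeq2 2525 and 2265 of 18585, and with the 2 groups alone 2008 and 2113 of 16636.

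Leaving out single libraries gave 2 to 5 higher sterol members and 0 to 2 sterol members at least 1.5-fold lower in shAKR1B1. In shSORD it gave 0 to 1 fatty acid members at least 1.5-fold higher and 1 to 2 lower, 0 to 1 sterol members at least 1.5-fold higher and 0 to 3 lower, and sterol medians of -0.27 to -0.17. Between the knockdowns it gave 0 to 4 higher fatty acid members, 0 to 1 of them at least 1.5-fold, 2 to 6 higher and 1 to 3 lower sterol members, and 0 to 1 sterol members at least 1.5-fold higher. In that comparison the highest counts of higher and lower members came without shSORD replicate 3, the 1 fatty acid member at least 1.5-fold higher came without shSORD replicate 1, and the cause was not tested. Calls over all genes moved too. In shAKR1B1 against plko 4121 rose and 4360 fell of 17214 without shAKR1B1 replicate 1, and 5368 and 5344 of 17192 without shSORD replicate 3. In shSORD against plko 4244 rose and 4139 fell of 17196 without shSORD replicate 1, and 5041 and 5086 of 17192 without its replicate 3. All-gene counts at 1.5-fold are not given for these settings. In the comparisons with plko, same-numbered libraries shared only a number (correlations from -0.03 to 0.03). With the replicate block SC5D gained a call in shSORD against plko (log2 fold change 0.31, adjusted p = 0.017). Between the knockdowns, where same-numbered libraries deviated together, MSMO1 gained one (0.33, 0.0195), and the block changed no other member's call. ACSL5 is limited by its counts, and CYP51A1 by its counts and by exons shared with other genes on its own strand.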

Other observations

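The pair of proteins that hand cholesterol out of late endosomes did not move together in shSORD cells. NPC2, the soluble carrier of the pair, singled out after its values were seen, had 30.4, 31.1 and 30.8 CPM in shAKR1B1 cells, 55.4, 55.9 and 54.9 CPM in shSORD cells and 44.4, 45 and 44.9 CPM in plko cells. It fell in shAKR1B1 (log2 fold change -0.54, SE 0.054, adjusted p = 8.49e-07) and rose in shSORD cells (log2 fold change 0.31, SE 0.053, adjusted p = 0.000176), and the 3 groups did not overlap. NPC1, the membrane partner, had 54.5, 52.8 and 53.8 CPM in shAKR1B1 cells, 77.1, 81.1 and 83.6 CPM in shSORD cells and 91.2, 92.1 and 94.1 CPM in plko cells. Both were lower in shAKR1B1 than in shSORD cells, NPC1 by 0.59 (adjusted p = 8.92e-07) and NPC2 by 0.85 (adjusted p = 2.39e-08) on the log2 scale in edgeR's test.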
